A study of Homo sapiens with 15 samples.

Results

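The genes described here encode the subunits of the respiratory chain and of ATP synthase, which sit in the inner mitochondrial membrane. They were taken by symbol: the NDUF, SDH, UQCR, COX and ATP5 families of the nucleus and the protein genes of the mitochondrial genome, without pseudogenes and with at least 150 reads over the 15 libraries. The rule found 91 of the 60671 genes in the count table. Of these, 78 are nuclear and 13 mitochondrial. All 91 passed the filter on low counts, and each carries a symbol of a subunit gene. Complexes were assigned by the first letters of the symbol alone. NDUFA4 is thus counted in complex I and COX7A2L in complex IV, whatever the place of their proteins. By this assignment the nuclear members comprise 36 genes of complex I, 4 of complex II, 9 of complex III, 12 of complex IV and 17 of complex V. The mitochondrial members comprise 7 genes of complex I, 1 of complex III, 3 of complex IV and 2 of complex V.

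Complexes I to IV pass electrons from NADH and succinate to oxygen. Complexes I, III and IV also pump protons across the membrane, and complex V, the ATP synthase, uses the resulting gradient to make ATP. Complex II is encoded in the nucleus alone, while the other complexes join nuclear subunits with subunits of the mitochondrial genome. The mitochondrial genes are transcribed as long polycistronic RNAs that are cut at the tRNAs between them, and nuclear factors such as NRF1, the ETS family factor GABP and YY1 are known regulators of nuclear subunit genes.

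RNA sequencing was done on HT115, a human cell line established from a colorectal cancer, in 5 groups of 3 libraries. In every group, GFP control included, a protein was induced with doxycycline (0.5 µg/ml, 24 h). The induced protein was GFP, wild-type SOX9 (SOX9_WT, V5-tagged) or a V5-tagged SOX9 mutant named M228, M303 or M379. M303 is a truncated SOX9 in the series text, and no source used here says what the names M228 and M379 mean. The 5 groups in triplicate are those of the labels, whereas the series text counts 6 experiments in duplicate. Whether the libraries within a group stem from separate cultures is not labelled, and the p-values therefore measure only how these libraries spread, which may be technical.

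The library with the fewest reads was GFP replicate 1 (3054755) and the one with the most was M303 replicate 1 (31704249). All 9 epithelial markers examined (such as EPCAM, KRT8 and CDX2) had at least 150 reads over the 15 libraries. Their sum took 1.12% to 2.34% of the reads of a library, while 5 leukocyte markers took at most 5.3e-05%. The 3 endothelium markers took at most 1.0e-04% and the 6 fibroblast markers at most 6.5e-04%. Of the fibroblast markers, 2 had at least 150 reads. SOX9, the induced gene, lay between 97.6 and 158 CPM (TMM-scaled read counts per library total) in GFP, between 186 and 243 CPM in SOX9_WT and between 1900 and 3039 CPM in the 9 mutant libraries. SOX9 was called in each mutant against GFP (log2 fold changes 4.14 to 4.66) and not in SOX9_WT against GFP (0.84 ± 0.18 SE, adjusted p = 0.11, edgeR). GFP replicate 2 stood apart, where cytosolic ribosomal proteins took 7.35% of the reads, while the remaining 14 libraries had 3.77% to 4.98%. Replicate 1 of the groups also differed from replicates 2 and 3. The medians and the named genes that turn on GFP replicate 2 are also given without it.

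Sequences of 3 members are shown because results below turn on them. NDUFS4, an accessory subunit of complex I, and SDHB, an iron-sulfur subunit of complex II, had the smallest p over the 5 groups among the nuclear genes of their complexes. Their promoter windows run from 250 bases before to 50 bases after the RefSeq start (GRCh38.p14), and capitals mark the motifs named below. The NDUFS4 window is chr5:53560389-53560688 on the plus strand and holds ATGGCGG, part of the YY1 site. The SDHB window is chr1:17053983-17054282 on the minus strand and holds, from left to right, GCGCATG (part of the NRF1 site, on the opposite strand), CCGGAAG (the ETS core) and ATGGCGG. In both windows ATGGCGG lies after the RefSeq start, at bases 275 to 281 in NDUFS4 and 264 to 270 in SDHB. MT-ATP8, a subunit of ATP synthase, lies at chrM:8366-8572 (plus strand, GRCh38), and its capitals are the 46 bases that also belong to MT-ATP6. Reads over bases that belong to both genes are given to neither under the recorded counting options, which bears on the level of MT-ATP8, a gene of 207 bases.
NDUFS4 promoter: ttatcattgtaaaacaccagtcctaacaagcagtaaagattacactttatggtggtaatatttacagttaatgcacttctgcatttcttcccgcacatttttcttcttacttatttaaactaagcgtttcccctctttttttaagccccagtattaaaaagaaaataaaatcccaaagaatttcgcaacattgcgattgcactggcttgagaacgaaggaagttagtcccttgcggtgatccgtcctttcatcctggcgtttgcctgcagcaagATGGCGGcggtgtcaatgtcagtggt
SDHB promoter: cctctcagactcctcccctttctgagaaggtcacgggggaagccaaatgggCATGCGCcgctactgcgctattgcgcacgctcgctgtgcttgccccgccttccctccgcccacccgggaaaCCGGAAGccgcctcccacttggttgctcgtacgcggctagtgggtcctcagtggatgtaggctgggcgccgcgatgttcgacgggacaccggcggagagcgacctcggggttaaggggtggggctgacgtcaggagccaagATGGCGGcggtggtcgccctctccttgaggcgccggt
MT-ATP8: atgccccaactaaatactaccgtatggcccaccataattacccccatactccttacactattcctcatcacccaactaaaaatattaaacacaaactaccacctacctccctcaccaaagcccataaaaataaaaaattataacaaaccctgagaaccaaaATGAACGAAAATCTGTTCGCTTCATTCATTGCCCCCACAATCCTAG

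Of the 78 nuclear members, 64 had a promoter in the RefSeq table. The letters GCGCATG were found, on either strand, in 15 of these 64 windows (23.4%), against 5.30% of the 27305 gene symbols in the table. CCGGAAG was found in 21 of the 64 (32.8%), against 12.2% of all. ATGGCGG was found in 20 of the 64 (31.2%), against 6.66% of all. Its first letters, ATG, are also those of a start codon, and in both printed windows it lies after the RefSeq start. Whether its matches lay in coding sequence was not tested, so its share cannot be read as a share of YY1 sites. At least 1 of the 3 motifs was in 38 member windows (59.4%), against 20.8% of all, and 4 member windows held all 3. Matches of different motifs overlapped in 0 member windows. The letters were chosen after matches in these windows had been seen, and a match describes letters and not a bound site.

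Levels were compared between genes on the TPM scale, which divides the count by the merged exon length and gives every library the same sum. The mitochondrial genes were far above the nuclear ones. Their mean TPM over the 15 libraries ran from 2313 for MT-ND6, the only protein gene in the opposite direction, to 41552 for MT-CO2, a catalytic subunit of cytochrome c oxidase. The RNA was poly(A)-selected, and the part of that selection in these levels was not tested. The median of the 13 mitochondrial genes was 14190 TPM and that of the 78 nuclear genes was 141 TPM. Among the nuclear genes, ATP5F1B, the catalytic beta subunit of ATP synthase, was highest at 3596 TPM. NDUFS5 led complex I with 1103 TPM and COX8A led complex IV with 1089 TPM. UQCRH, the hinge protein of complex III, stood at 453 TPM and the iron-sulfur subunit SDHB of complex II at 316 TPM.

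The lowest nuclear gene of each complex was NDUFV2 in complex I with 1.02 TPM, SDHA in complex II with 29.8 TPM, UQCRB in complex III with 40.1 TPM, COX6B2 in complex IV with 1.69 TPM and ATP5MG in complex V with 64.0 TPM. NDUFV2 encodes an iron-sulfur subunit of the core of complex I. It held 208 reads in all, while its pseudogene NDUFV2P1 held 1817, and 28.4% of its exon bases are shared with a gene annotated on the same strand, so its low value is uncertain. The merged exon length of UQCRB is 12600 bases, which lowers its TPM. SDHA shares 21.6% of its exon bases with same-strand genes. Its named pseudogenes held 6773 reads beside its own 19817, so its low value is uncertain too. The complex medians of nuclear genes were 82.3 TPM for complex I, 68.5 for complex II, 191 for complex III, 315 for complex IV and 174 for complex V, as the plot of levels by complex shows.

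**Figure D1:**
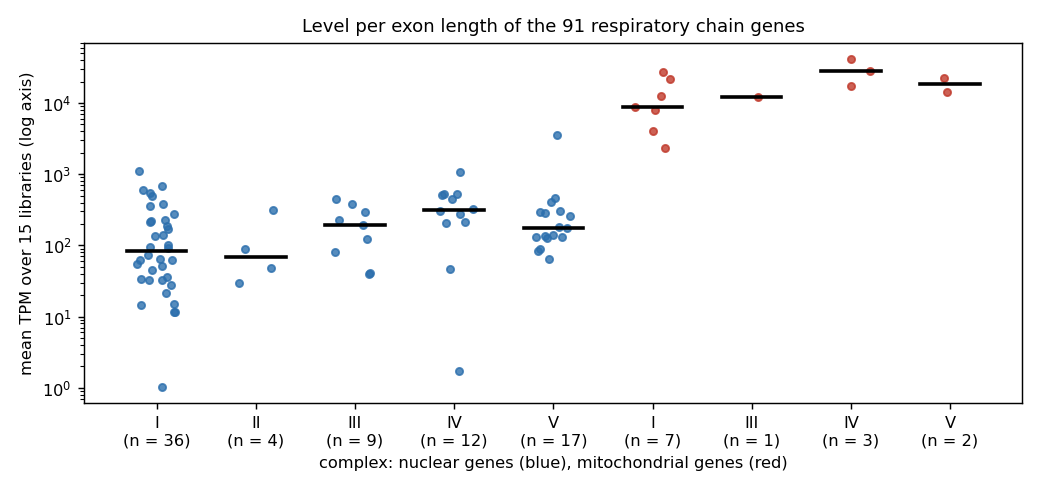
Mean TPM over 15 libraries (log axis) of the 91 genes by complex, 1 point per gene, with nuclear genes in blue, mitochondrial genes in red and bars at the medians. Every mitochondrial gene but MT-ND6 (2313 TPM) lies above the highest nuclear gene, ATP5F1B (3596 TPM).

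Of the tissue-restricted isoforms of complex IV examined, all but COX6B2 had almost no reads. COX6A2 and COX7B2 had 0 reads over 15 libraries, COX4I2 had 1, COX8C had 3 and COX7A1 had 35, so none of them reached the 150 reads of the rule. COX6B2 passed with 472 reads, at 1.27 to 3.24 CPM. The widely expressed partners were far higher, with COX4I1 at 368 to 841 CPM, COX6A1 at 98.1 to 221 CPM, COX6B1 at 183 to 424 CPM, COX7A2 at 167 to 384 CPM and COX8A at 136 to 284 CPM. In each of these 5 genes the highest value was that of GFP replicate 2. The c-ring genes ATP5MC1, ATP5MC2 and ATP5MC3 encode the same mature protein from separate genes and lay at 125 to 263, 136 to 281 and 248 to 400.1 CPM.

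Just outside the rule lay NDUFA7 with 144 reads, ATP5MGL with 42, COX7A1 with 35, UQCRFS1-DT with 27 and the readthrough gene ATP5MF-PTCD1 with 24. NDUFA7 shares 32.5% of its exon bases with a gene on the same strand. Just inside lay NDUFV2 and COX6B2. Because reads of both strands were counted together, 8 members are uncertain because over 20% of their exon bases overlap an opposite-strand gene: NDUFB2, NDUFB3, NDUFB9, NDUFS7, UQCR10, ATP5F1E, ATP5ME and ATP5PF. The overlap was largest for ATP5ME, at 61.3%. Same-strand overlap was over 20% in 7 members: MT-ATP8, NDUFA13, NDUFB8, NDUFV2, SDHA, COX6B2 and COX8A. It was largest for COX8A, at 35.4%.

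Copies of mitochondrial genes in the nucleus took few reads. The table lists 404 such copies, of which 116 had a read, and together they held 1.34% as many reads as the 13 mitochondrial genes. The copy MTATP6P1 held 151380 reads beside the 1174551 of MT-ATP6. Its share of the reads of both lay between 10.9% and 12.5% in every library.

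The first question was whether any induced SOX9 form was accompanied by a change in these genes. No member was called against GFP in any of the 4 comparisons (edgeR, adjusted p under 0.05, 16160 genes tested). Among all genes 0.0309% were called in SOX9_WT against GFP, 0.241% in M228, 0.118% in M303 and 0.0371% in M379. Without adjustment, 21, 13, 17 and 14 of the 91 members had a p under 0.05 in these comparisons (23.1%, 14.3%, 18.7% and 15.4%, against 10.7%, 9.38%, 7.80% and 6.77% of all genes). DESeq2 called 0 members in each, against 0.415%, 1.03%, 0.551% and 0.309% of all genes. No member was called between M228, M303 or M379 and SOX9_WT, where 0.569%, 0.384% and 0.124% of all genes were called. There the unadjusted counts were 0, 1 and 1, against 6.65%, 6.31% and 4.70% of all genes, and DESeq2 again called 0, against 1.40%, 1.05% and 0.439%. The test of any difference among the 5 groups also called 0 members, against 0.681% of all genes, with 3 members (3.30%) and 6.85% of all genes at an unadjusted p under 0.05, and DESeq2 called 0 members against 2.22%. These counts are 0 against backgrounds so low that few of 91 genes would be called at the same rate, and they do not show that the levels are equal.

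The mitochondrial and nuclear genes were then summed per library. The 13 mitochondrial genes took 3.35%, 6.42% and 7.27% of the reads in GFP replicates 1, 2 and 3. They took 4.94%, 7.62% and 7.16% in SOX9_WT, 5.86%, 5.93% and 5.62% in M228, 4.65%, 6.32% and 5.16% in M303 and 5.19%, 6.63% and 5.40% in M379. All 5 groups overlapped, and the spread within GFP alone covered every value of M228, M303 and M379. The group means were 5.68 ± 2.06% in GFP (5.31% over replicates 1 and 3), 6.57 ± 1.44% in SOX9_WT, 5.80 ± 0.16% in M228, 5.38 ± 0.86% in M303 and 5.74 ± 0.78% in M379 (SD, n = 3 each). In bulk RNA, fewer mitochondria per cell and less RNA per mitochondrion cannot be told apart.

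The 78 nuclear genes took 1.39%, 2.00% and 1.20% of the reads in GFP replicates 1, 2 and 3. In the 12 other libraries they took 1.24% to 1.37%. Apart from GFP replicate 2, all libraries lay within a narrow band. The group means were 1.53 ± 0.41% in GFP (1.30% over replicates 1 and 3 alone), 1.27 ± 0.05% in SOX9_WT, 1.28 ± 0.04% in M228, 1.30 ± 0.06% in M303 and 1.33 ± 0.04% in M379 (SD, n = 3 each). The log2 ratio of mitochondrial to nuclear reads was 1.85 ± 0.68 in GFP (1.93 over replicates 1 and 3), 2.34 ± 0.40 in SOX9_WT, 2.18 ± 0.01 in M228, 2.03 ± 0.27 in M303 and 2.11 ± 0.17 in M379, and it overlapped between all groups.

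**Figure D2:**
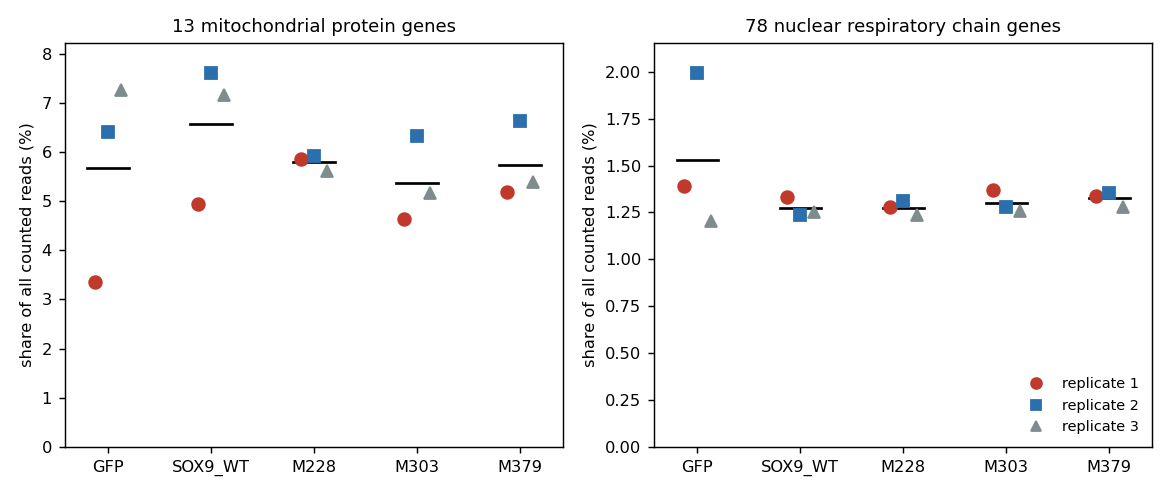
Share of all counted reads (%) in the 13 mitochondrial and the 78 nuclear genes, 1 point per library by group and replicate number, with bars at the group means (n = 3). GFP replicate 2 is the highest point of the nuclear genes at 2.00%, and replicate 1 is the lowest of its group for the mitochondrial genes in 4 of 5 groups.

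Against GFP the nuclear members were estimated lower on the whole. Their median log2 fold change was -0.35 in SOX9_WT, -0.33 in M228 and M303 and -0.30 in M379. Of the 78 estimates, 72, 74, 76 and 74 lay below 0. The median of all tested genes lay between 0.00 and 0.01 in the 4 comparisons. These comparisons share the GFP libraries. Without GFP replicate 2 the nuclear medians were 0.01, 0.05, 0.03 and 0.06. The direction of the nuclear genes against GFP thus changed with that 1 library. Without GFP replicate 3 they were -0.54, -0.50, -0.50 and -0.48. By complex the medians in M303 against GFP were -0.30 for complex I, -0.14 for complex II, -0.35 for complex III, -0.35 for complex IV and -0.37 for complex V. Without GFP replicate 2 they were 0.05, 0.01, 0.00, 0.04 and -0.01, so these values rest on that library too.

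The mitochondrial members had medians of 0.12, 0.01, -0.10 and 0.01 against GFP in the same order. Without GFP replicate 2 these were 0.31, 0.16, 0.02 and 0.08, and without GFP replicate 3 they were 0.38, 0.23, 0.11 and 0.22. Without GFP replicate 1, the library with the lowest mitochondrial share, they were -0.21, -0.37, -0.49 and -0.33. The direction of the mitochondrial genes against GFP thus turned with the GFP library left out. Against SOX9_WT, where GFP takes no part, the nuclear medians were 0.02 in M228, 0.01 in M303 and 0.04 in M379. The mitochondrial medians were -0.19, -0.30 and -0.22, with all 13 estimates below 0 in each comparison and none called. These 3 comparisons share the SOX9_WT libraries, in which replicates 2 and 3 held the mitochondrial shares of 7.62% and 7.16%. The medians were -0.39, -0.50 and -0.43 without SOX9_WT replicate 1, -0.05, -0.18 and -0.08 without replicate 2, and -0.10, -0.23 and -0.12 without replicate 3. Leaving out libraries of the mutants moved them too, to -0.18 without M303 replicate 1 and -0.47 without M303 replicate 2, and to -0.15 without M379 replicate 1 and -0.34 without M379 replicate 2.

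**Figure D3:**
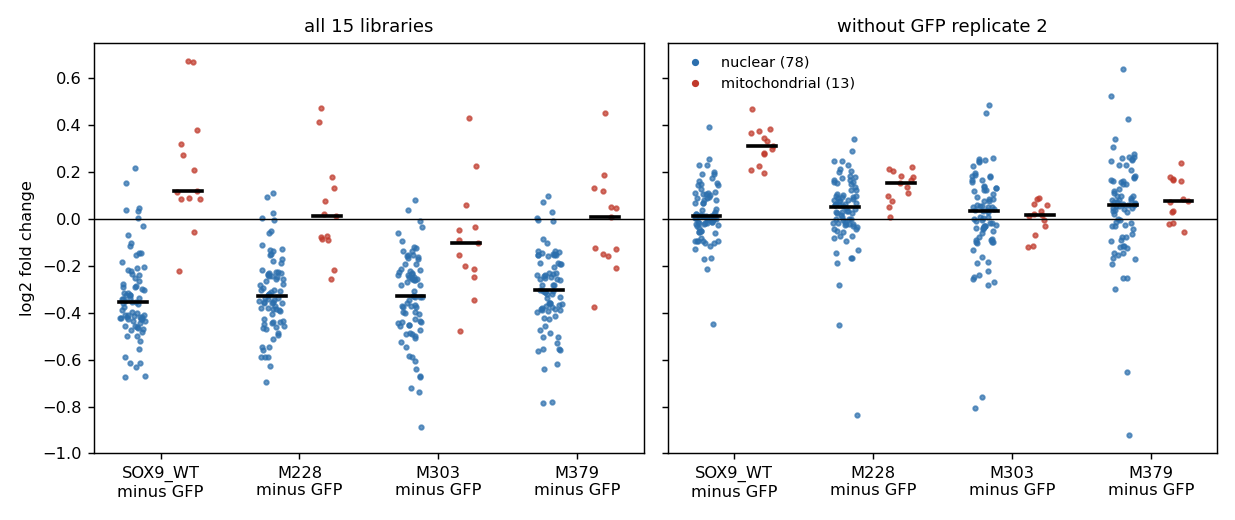
Log2 fold changes (edgeR) of the 78 nuclear (blue) and 13 mitochondrial (red) genes against GFP in 4 comparisons, 1 point per gene with bars at the medians, from all 15 libraries and without GFP replicate 2. The nuclear medians of -0.35 to -0.30 move to between 0.01 and 0.06 when that library is left out.

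The nuclear gene with the smallest p over the 5 groups was NDUFS4, an accessory subunit needed for the assembly of complex I (adjusted p = 0.38, edgeR). NDUFS4 (ENSG00000164258) lies on chromosome 5 from 53560633 to 53683338 on the plus strand. Its level was 45.3, 58.9 and 38.2 CPM in GFP replicates 1, 2 and 3 and 32.4 to 36.5 CPM in the 12 other libraries. All 3 GFP libraries lay above all 12 others, and GFP replicate 2 was the highest. The gene was picked for its small p, which favours such a separation. How many of all genes share it was not counted. The log2 fold changes against GFP were -0.42 ± 0.14 in SOX9_WT, -0.49 ± 0.14 in M228, -0.46 ± 0.14 in M303 and -0.50 ± 0.14 in M379 (SE), with adjusted p from 0.22 to 0.43. Without GFP replicate 2 they were -0.21, -0.28, -0.25 and -0.30. Without GFP replicate 3 the M228 value was called (-0.63, adjusted p = 0.043).

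COX6B2, a testis-type subunit of complex IV, came next (adjusted p = 0.41, edgeR). It stood at 1.82, 3.24 and 2.88 CPM in GFP, at 2.04, 2.37 and 2.48 CPM in SOX9_WT, at 1.86, 1.27 and 2.26 CPM in M228, at 1.58, 1.62 and 1.33 CPM in M303 and at 1.61, 1.56 and 1.72 CPM in M379. M303 and M379 lay below GFP and SOX9_WT in every library, and M228 overlapped both. This gene too was picked for its small p, and the share of all genes with this arrangement was not counted. The log2 fold change of M303 against GFP was -0.89 ± 0.24 (SE, adjusted p = 0.27), or -0.76 ± 0.27 without GFP replicate 2, and that of M303 against SOX9_WT was -0.59 ± 0.23 (adjusted p = 0.57). The gene held 472 reads over 15 libraries, so counting error is large, and 29.1% of its exon bases are shared with a gene on the same strand.

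ATP5PO (ENSG00000241837, chromosome 21, 33903453 to 33915814, minus strand) followed (adjusted p = 0.72, edgeR). It stood at 88.2, 185 and 80.5 CPM in GFP and at 62.0 to 91.2 CPM in the 12 other libraries. Only GFP replicate 2 lay apart. The log2 fold change against GFP was -0.67 ± 0.25 in SOX9_WT and -0.74 ± 0.25 in M303 (SE), and -0.17 and -0.25 without GFP replicate 2. UQCRB, a small subunit of complex III, showed the same arrangement, with 317 CPM in GFP replicate 2 and 124 to 171 CPM in the 14 other libraries.

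The remaining nuclear genes with the smallest p of their complexes were NDUFB8 in complex I, SDHB and SDHA in complex II, UQCRH in complex III, COX6C in complex IV and ATP5ME in complex V. Their highest value was in every case that of GFP replicate 2. NDUFB8 stood at 49.6 CPM there and at 17.02 to 24.2 CPM in the others. SDHB, which passes electrons within complex II, stood at 333 CPM there and at 212 to 233 CPM in the others. SDHA, the flavoprotein of complex II, stood at 121 CPM there and at 68.9 to 89.6 CPM in the others. UQCRH stood at 331 CPM there and at 170.2 to 195 CPM in the others. COX6C stood at 357 CPM there and at 131 to 209 CPM in the others. ATP5ME stood at 194 CPM there and at 72.1 to 84.6 CPM in the others.

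ATP5F1D, the delta subunit of ATP synthase, is named because a fit of 2 groups alone called it, and was chosen after its values were seen. It stood at 138, 363 and 156 CPM in GFP, 169, 152 and 155 CPM in SOX9_WT, 153, 197 and 213 CPM in M228, 202, 207 and 199 CPM in M303 and 197, 269 and 227 CPM in M379. All M303 and M379 libraries lay above all SOX9_WT libraries, an arrangement whose share over all genes was not counted. The log2 fold change of M379 against SOX9_WT was 0.54 ± 0.27 (SE, adjusted p = 0.98) in the fit of all libraries. In the fit of those 2 groups alone it was 0.54 ± 0.11 (adjusted p = 0.042).

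The pattern of GFP replicate 2 was described over all members. In 72 of the 78 nuclear members (92.3%) this library had the highest CPM of the 15, against 27.7% of all genes tested. All 9 nuclear genes of complex III, all 12 of complex IV and all 17 of complex V were highest there, as were 32 of 36 of complex I and 2 of 4 of complex II. The median difference between GFP replicate 2 and the median of the other libraries was 0.88 on the log2 scale for the nuclear members and -0.01 for all genes. The 6 exceptions were NDUFA5, NDUFC2, NDUFS1, NDUFV2, SDHC and SDHD. NDUFS1, the largest subunit of complex I, was below the median of the others by -0.39 on that scale.

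Other genes moved alongside in that library. Of 84 cytosolic ribosomal protein genes, 81 were highest in GFP replicate 2, with a median difference of 0.88. Of 77 mitochondrial ribosomal protein genes, 67 were highest there, with a median of 0.69. Genes with under 1000 exon bases took 2.21% of its reads and 1.23% to 1.48% in the other libraries. The part of these features in the nuclear values was not tested. Without GFP replicate 2 the spread of the nuclear members over libraries was small, with a median SD of 0.10 on the log2 CPM scale over 14 libraries and 0.26 over 15.

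GFP replicate 2 also differed in the make-up of its mitochondrial reads. MT-ND4L took 0.92% of the reads in the 13 genes there and 2.98% to 3.97% in the other 14 libraries. MT-ND5 took 2.20% there and 3.63% to 4.36% in the others. MT-ATP8 took 0.75% there and 1.31% to 1.84% in the others. All 3 shares lay below every other library. MT-CO3, a core subunit of cytochrome c oxidase, took 16.6% there and 10.8% to 12.7% in the others, and MT-CO2 took 18.5% there and 14.1% to 16.7% in the others. MT-ATP6 and MT-ND3 were also above, and MT-CO1 and MT-ND4 below, the range of the other libraries. MT-CYB took 7.55% there, within the 7.32% to 7.69% of the others.

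Calls of MT-ND4L and MT-ATP8 appeared when another GFP library was left out. Without GFP replicate 3, MT-ND4L was called in SOX9_WT against GFP (1.43 ± 0.26 SE, adjusted p = 0.0496) and in M228 against GFP (1.23 ± 0.26, adjusted p = 0.043). MT-ATP8 was called in the same comparisons (1.31 ± 0.21 and 1.05 ± 0.21, adjusted p = 0.043 and 0.040). In GFP replicates 1, 2 and 3, MT-ND4L stood at 1122, 636 and 2683 CPM and MT-ATP8 at 425, 521 and 1258 CPM. With all libraries neither was called.

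**Figure D4:**
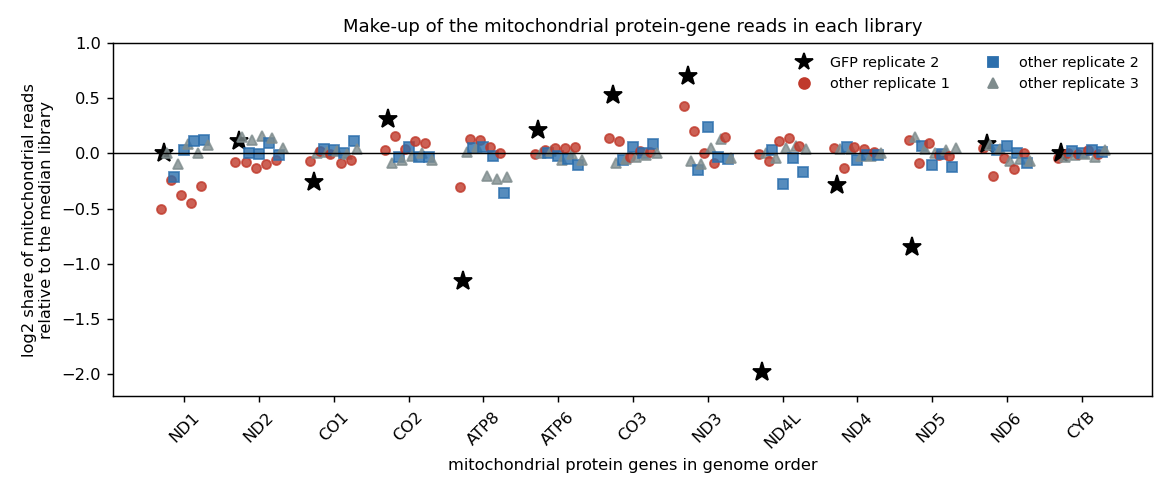
Log2 share of each mitochondrial protein gene in the reads of the 13 genes, relative to the median library, for 15 libraries with genes in genome order. GFP replicate 2 (star) lies apart at MT-ND4L (0.92% against 2.98% to 3.97%), MT-ATP8, MT-ND5 and MT-CO3, and replicate 1 (red) lies low at MT-ND1 and MT-ND2.

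The second question was whether the genes differed by replicate number. Libraries numbered 1 were compared with those numbered 2 and 3 in a model with group and replicate number. The labels do not say what a number marks. Of the 91 members, 9 were called and all 9 were lower in replicate 1, against 17.7% of all genes called, 8.36% lower and 9.29% higher. All 9 were mitochondrial (9 of 13, or 69.2%), and 0 of the 78 nuclear members were called, with 5 (6.41%) and 32.5% of all genes at an unadjusted p under 0.05. The median log2 fold change was -0.48 for the 13 mitochondrial genes, -0.10 for the nuclear genes and 0.01 for all genes tested. The mean mitochondrial share was 4.80 ± 0.92% in the 5 libraries numbered 1, 6.58 ± 0.63% in those numbered 2 and 6.12 ± 1.01% in those numbered 3 (SD, n = 5 each). Replicate 1 was the lowest of its group except in M228.

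The lowest estimate was that of MT-ND1, a membrane subunit of complex I that lies next to the ribosomal RNA genes. MT-ND1 stood at 1067 (GFP), 1946 (SOX9_WT), 2116 (M228), 1563 (M303) and 1976 CPM (M379) in replicate 1. In replicates 2 and 3 its lowest value was 2530, its median 3293 and its highest 3612 CPM. All 5 libraries numbered 1 lay below all 10 others. The log2 fold change was -0.89 ± 0.14 (SE, adjusted p = 0.0012, edgeR), and MT-ND1 was called with each of the 15 libraries left out in turn (-0.99 to -0.70).

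MT-ND2, the neighbouring complex I gene, stood at 2038, 3122, 3579, 2846 and 3321 CPM in the libraries numbered 1, in the same order. In the 10 others it ran from 3935 over a median of 4690 to 5688 CPM, with no overlap. Its log2 fold change was -0.68 ± 0.13 (SE, adjusted p = 0.0044). Such a separation of the libraries numbered 1 below all others was found in 3.06% of all genes. Of the 13 mitochondrial protein genes, MT-ND1 and MT-ND2 had it.

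The other called genes overlapped between the replicate numbers. MT-ND6 was lower by -0.57 ± 0.14 (adjusted p = 0.013) and MT-CO1, the catalytic subunit of cytochrome c oxidase, by -0.55 ± 0.13 (adjusted p = 0.011). MT-CYB, the cytochrome b of complex III, was lower by -0.51 ± 0.13 (adjusted p = 0.018). MT-CO3 was lower by -0.50 ± 0.13 (adjusted p = 0.020), MT-ND4 by -0.48 ± 0.14 (adjusted p = 0.033), MT-ATP6 by -0.45 ± 0.14 (adjusted p = 0.043) and MT-ND3 by -0.44 ± 0.12 (adjusted p = 0.028). In replicate 1, MT-CO1 ran from 4210 to 8013 CPM with a median of 6846, and in the others from 7385 to 11265 with a median of 9038 CPM. MT-CYB ran from 2281 to 4259 CPM in replicate 1 and from 3828 to 5902 CPM in the others. Not called were MT-CO2 (-0.41 ± 0.14, adjusted p = 0.052), MT-ND5 (-0.44 ± 0.16, adjusted p = 0.075), MT-ATP8 (-0.33 ± 0.20, adjusted p = 0.27) and MT-ND4L (-0.29 ± 0.23, adjusted p = 0.39). MT-ND6 lies on the strand opposite to the others and was counted without regard to strand, so its reads cannot be told from antisense reads.

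The calls depended on single libraries to different degrees. MT-ND1, MT-ND2, MT-CO1 and MT-ND6 were called whichever library was left out. MT-CYB and MT-CO3 lost their call without M303 replicate 1 alone (adjusted p = 0.052 and 0.060). MT-ND3 lost it without GFP replicate 1, SOX9_WT replicate 3, M228 replicate 1, M303 replicate 1 or M303 replicate 3 (adjusted p from 0.051 to 0.11). MT-ND4 lost it in 7 of the 15 cases: without GFP replicate 1, SOX9_WT replicate 1 or 3, M303 replicate 1 or 2, or M379 replicate 1 or 2 (adjusted p from 0.058 to 0.12). MT-ATP6 lost it in 11 of 15, all but those without GFP replicate 2 or 3 or M228 replicate 1 or 2 (adjusted p from 0.053 to 0.11). Without GFP replicate 1, which holds the fewest reads and the lowest mitochondrial share, the estimates were -0.28 for MT-ND3, -0.26 for MT-ATP6 and -0.32 for MT-CO3, and 6 members were called, against 10.9% of all genes. Without M303 replicate 1, 4 members were called, against 6.68% of all genes, so the share over all genes dropped as well. Without GFP replicate 2 there were 22, all 13 mitochondrial genes lower and 9 nuclear genes, 5 higher and 4 lower, against a background of 34.5%. The share of nuclear members called was then below that of all genes. Without the whole GFP group, 11 mitochondrial genes were called lower and 6 nuclear genes were called, against a background of 32.2%.

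The nuclear genes called without GFP replicate 2 had small estimates. NDUFS6, NDUFS8, NDUFB3 and ATP5MK were lower in replicate 1, by -0.21, -0.19, -0.16 and -0.17 on the log2 scale. NDUFA2, NDUFB1, NDUFB5, SDHD and ATP5MC2 were higher, by 0.19, 0.16, 0.16, 0.24 and 0.19. NDUFS8 encodes an iron-sulfur subunit of complex I and SDHD a membrane anchor of complex II. Complexes I and V had called genes in both directions.

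The fold changes were also set against gene order. The ribosomal RNA genes MT-RNR1 and MT-RNR2, which are transcribed first from the heavy-strand promoters and are no members, were called lower in replicate 1 (-0.80 ± 0.10 and -0.69 ± 0.10 SE, adjusted p = 2.6e-04 and 8.0e-04). All 5 libraries numbered 1 lay below all 10 others for both. Across the 12 protein genes of that transcription direction, position and log2 fold change had a Pearson's r of 0.62 and a Spearman's rho of 0.38. The genes share their transcript and libraries, so these values are descriptions. The share of MT-ND1 in mitochondrial reads was 3.43% to 4.10% in replicate 1 and 4.18% to 5.28% in the others, and that of MT-ND2 was 6.31% to 6.63% and 6.87% to 7.73%. Both shares were separated between the replicate numbers, while those of the other mitochondrial protein genes overlapped. MT-ND1 and MT-ND2 were singled out for low estimates from the same counts, which favours such a separation. At these genes the make-up of the mitochondrial reads differed as well as their amount.

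**Figure D5:**
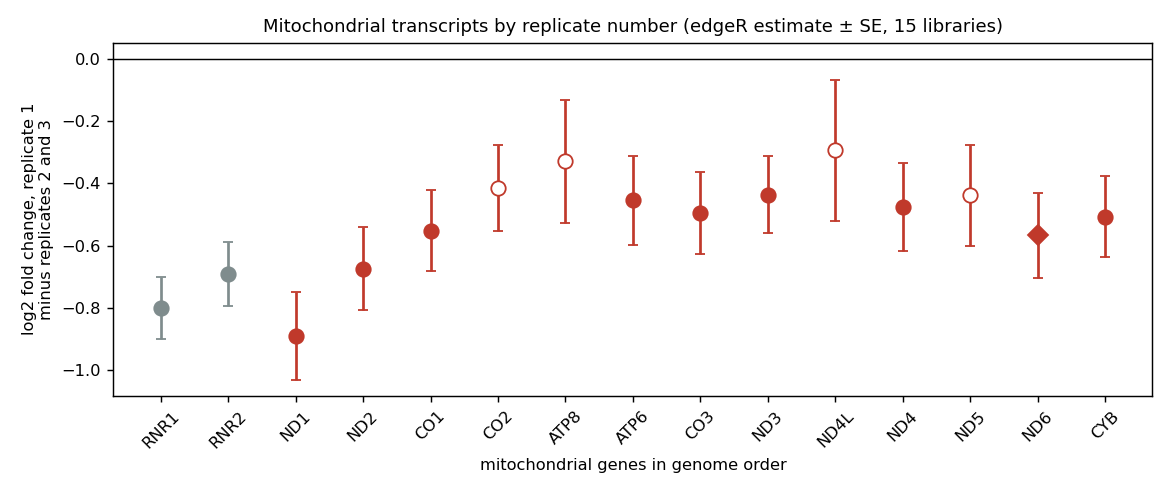
Log2 fold change of replicate 1 minus replicates 2 and 3 (edgeR estimate ± SE, 15 libraries) for the mitochondrial ribosomal RNA genes (grey) and protein genes (red; filled where the adjusted p was under 0.05, diamond for MT-ND6 on the opposite strand), in genome order. The lowest estimates are those of MT-ND1 (-0.89), MT-RNR1 (-0.80), MT-RNR2 (-0.69) and MT-ND2 (-0.68).

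Genes that build or regulate the chain were read in the same fits. In the 7 comparisons between groups, no gene was called among assembly factors, mitochondrial transcription and RNA factors, biogenesis regulators and mitochondrial ribosomal proteins. Nor was one called in the lists of the tricarboxylic acid cycle, glycolysis, and subunits and carriers outside the rule. The last list includes NDUFAB1, ATP5IF1 and COX7A2L, of which COX7A2L is also a member. TFAM, which packages mitochondrial DNA and takes part in its transcription, NRF1, and the cytochromes CYC1 and CYCS were called in no comparison. TFAM was estimated at 0.00 ± 0.12 in replicate 1 against the others (SE, adjusted p = 0.99) and NRF1 at -0.04 ± 0.09 (adjusted p = 0.77).

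By replicate number, the assembly factors had 5 of 47 called, against the 17.7% of all genes: BCS1L, an assembly factor of complex III (-0.53 ± 0.08), TMEM70, one of ATP synthase (-0.33 ± 0.07), COA7 and NDUFAF2 lower, and NUBPL (0.44 ± 0.11) higher. Of 27 factors for mitochondrial transcription, RNA and DNA, 3 were called, all lower: TWNK, the mitochondrial DNA helicase (-0.28 ± 0.06), SLIRP, an RNA stability factor (-0.50 ± 0.13), and SSBP1 (-0.40 ± 0.11). Of 11 biogenesis regulators, PPARA (0.59 ± 0.14) and the coactivator PPARGC1A (0.39 ± 0.11) were called higher and PPRC1 (-0.31 ± 0.07) lower. Of 77 mitochondrial ribosomal proteins, with a list median of -0.23, 14 were called (18.2%), all lower, against 8.36% of all genes called lower. The carrier ETFDH, which passes electrons from fatty acid oxidation to ubiquinone, was called higher (0.32 ± 0.07).

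The 21 genes of the tricarboxylic acid cycle and pyruvate dehydrogenase had a median of -0.02, with 10 estimates above 0 and 11 below. Of these genes, 6 were called (28.6%), all higher, against 9.29% of all genes called higher. They included PDK4 and PDK2, kinases that inhibit pyruvate dehydrogenase (1.16 ± 0.11 and 0.56 ± 0.10), IDH2 (0.47 ± 0.10) and SUCLG2 (0.40 ± 0.09). Of 18 glycolysis genes, with a list median of -0.26, 7 were called (38.9%), all lower, against 8.36% of all genes called lower. They included the glucose transporter SLC2A1 (-1.03 ± 0.10), PKM (-0.46 ± 0.08), LDHA (-0.33 ± 0.07) and ENO1 (-0.43 ± 0.10). These errors are SE, and the adjusted p lay between 4.7e-05 (PDK4) and 0.013 (ENO1).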

How the data were processed

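Poly(A)-selected RNA of HT115 cells was sequenced in paired ends, per the labels' protocols. Per the submitters' processing notes, STAR 2.7.0a and the build hg38 were used. The table deposited by the authors holds raw counts and merged exon lengths (in bases), which come from featureCounts 2.0.1 with Ensembl 101, per the file headers. No strand, pair or overlap option is in the recorded command, so reads were counted without strand and reads over overlapping genes were left out. The deposited normalized table was not used.

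From the counts, edgeR 4.0.16 (R 4.3.3) fitted 1 quasi-likelihood model to 15 libraries, with filterByExpr (16160 genes tested), TMM scaling and 10 residual degrees of freedom. A second model added replicate number (8 residual degrees of freedom). P-values, all two-sided, were adjusted by Benjamini-Hochberg over all genes. A call is an adjusted p under 0.05. TPM used the deposited lengths. The fit between groups was run on simulated counts for M303 against GFP. These counts held no effect of replicate number and no outlying library. The level that 3 reads give, which a count of 0 still allows, was 0.0946 CPM in M303 replicate 1 and 0.982 CPM in GFP replicate 1 (counting error only). Alternatives were DESeq2 1.42.0, other scalings and filters, a replicate block and leaving out libraries.

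The members, lists and the replicate comparison were chosen with earlier results of these data known. Named genes were the 13 mitochondrial genes, called members, for each complex the 2 nuclear genes with the smallest p over 5 groups and the highest and lowest level, isoform pairs and up to 4 called genes per list. Equal replicate numbers paired the libraries, by correlated deviations from group means (every pair above 0.1), in M228, M303 and M379 against GFP (lowest 0.17, 0.20 and 0.29) and in M303 against SOX9_WT (lowest 0.10). The other comparisons did not meet this. The edgeR fold changes, SE and p given between groups come from fits without replicate number, which leave this pairing out. With a replicate block 0 members were called in each of the paired comparisons.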

Additional observations from a re-analysis of the deposited data

How the results depend on the processing

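Of the counts of called members between groups, all were 0 with the replicate block, DESeq2 and other scalings. With the replicate block 0.489%, 1.12%, 0.526% and 0.105% of all genes were called in SOX9_WT, M228, M303 and M379 against GFP. It called 1.97%, 1.60% and 0.656% of all genes in M228, M303 and M379 against SOX9_WT and 2.05% over the 5 groups. The shares of all genes were 0.309% to 2.22% with DESeq2 and 0.0186% to 0.928% with other scalings, the correction for length included. Without the filter on low counts they were 3 in SOX9_WT, 1 in M228 and 2 in M303 against GFP and 3 over the 5 groups, with ATP5PO in each, beside 0.482%, 0.755%, 0.568% and 1.60% of all genes. Without GFP replicate 3 they were 2 in SOX9_WT and 3 in M228 against GFP, beside 0.242% and 0.866% of all genes. Leaving out other libraries gave 0, beside 0% to 1.53% of all genes. A fit of 2 groups alone called 1 member in M379 against SOX9_WT (ATP5F1D), beside 1.03% of all genes. By replicate number, no filter gave 16 called members against 9 (8.78% of all genes called), leaving out 1 library gave 4 to 22 (6.68% to 34.5%), and leaving out the GFP group, chosen after seeing the data, gave 17 (32.2%). DESeq2 gave 11 (20.6%), a correction for length 9, 8 of the same genes (20.9%), and no group term 10 (14%). By replicate number no mitochondrial gene changed direction under these settings, nor did NDUFS4, COX6B2, ATP5PO or UQCRB against GFP. The replicate block changed no call of a member between groups. Where a count changed and no library is named, the cause was not tested. COX6B2 and NDUFV2 are limited by few reads, and all 15 libraries by 3 per group.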
